A study of Mus musculus with 13 samples.

Results

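The RNA of 7 genes of cholesterol synthesis and storage was followed from the mouse ovary to MYC-driven ovarian tumors: Srebf2, Hmgcs1, Fdps, Sqle, Lss, Cyp51 and Soat1. They were picked by symbol from a deposited table of 53465 genes, and all 7 were expressed highly enough to be tested with the 17277 genes that reached 1 TPM in 3 or more libraries. TPM is a read count divided by gene length and scaled to the same total in each library. None of the 7 encodes a lipoprotein receptor, so genes of cholesterol uptake were taken from a longer list of 80 cholesterol pathway genes and are described after the 7.

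Ovarian steroid-producing cells need cholesterol as the precursor of all steroid hormones, and obtain it from lipoproteins, from stored esters or by building it from acetyl-CoA. The transcription factor SREBP2, encoded by Srebf2, is held in the endoplasmic reticulum while sterol is plentiful and is cut and sent to the nucleus when sterol falls, where it raises the genes of sterol synthesis. Because this control acts on the protein, the RNA of Srebf2 is a measure of its transcript and not of the active factor. Dividing tumor cells draw on the same pathway for membranes and for isoprenoids, the lipids that anchor many signaling proteins.

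The comparison had a pair of groups. The WT ovary group held 3 ovaries of untreated wild-type mice. The labels attach the same animal protocol, C57BL/6 females of 8 to 12 weeks, to both groups, with the age given at surgery, and give no separate age at collection of the untreated ovaries. The MP tumor group held 10 whole tumors of mice labelled Myc;p53-/- EPO-GEMM, in which the left ovary of a wild-type female was injected with plasmids and electroporated. The plasmids encoded Cas9 with a single-guide RNA against Trp53, a MYC transposon and the Sleeping Beauty transposase. The lesions are therefore somatic, arise in the cells that took up the plasmids rather than through a tissue-specific promoter, and leave the rest of the mouse wild-type. The time from electroporation to collection of each tumor is not given in the sources used here. MP tumors are set against whole ovary, which holds follicles, corpora lutea and stroma.

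The library names carry 3 project numbers, called batches 1 to 3 here. MP tumors 1 to 3 and all WT ovaries are in batch 1, MP tumors 4 to 6 in batch 2 and MP tumors 7 to 10 in batch 3, so batch and group can be told apart within batch 1 alone. Reads worked back from the table came to 31445004 to 64013840 per WT ovary and to 3892690 to 19906507 per MP tumor. In MP tumor 2, 10 genes took 55.1% of all TPM, against at most 20.6% in any other library. Trp53 RNA in WT ovaries stood at 83.7 ± 2.61 TPM (SD, n = 3), and tumors were at 4.30 to 187 TPM in tumors (median 14.0), and the library labelled MP tumor 10 was the one tumor above every WT ovary. Mouse Myc RNA ran from 7.09 to 419 TPM in tumors against 126 to 129 TPM in WT ovaries (adjusted P = 0.654 from limma), and whether reads of the transposon are in it was not tested. Of 8 luteal and theca markers, 7 were lower in tumors, and their summed TPM ran from 27426 to 32475 in WT ovaries and from 12.6 to 826 in tumors. Of 8 granulosa markers, 7 were lower (3920 to 7253 against 17.5 to 1530 TPM), and of 8 oocyte markers 7 were lower (296 to 435 against 1.86 to 41.1 TPM). Macrophage markers (0 of 8 lower and 0 higher by limma, 5 lower and 0 higher at an unadjusted P under 0.05) summed to 1592 to 3937 TPM in WT ovaries and 758 to 4018 TPM in tumors. Of 7 epithelial markers tested, 3 were lower (286 to 317 against 8.27 to 1200 TPM), as were 3 of 6 endothelial and 3 of 6 stromal markers, while 2 of 6 proliferation markers were higher. T cell markers were lower in 2 of 3 tested. Adipocyte markers (0 of 4 lower and 0 higher by limma, 2 lower and 0 higher at an unadjusted P under 0.05) summed to 15.8 to 305 TPM in WT ovaries and 5.38 to 227 TPM in tumors. No marker of any list was at 0 in all tumors, and the part that cell makeup plays in the values below was not tested. In bulk RNA, fewer cells of a type and less RNA per cell cannot be told apart.

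The promoters of Hmgcs1, Srebf2 and Soat1 are shown because they belong to the gene of the 7 that changed most, to the factor that acts on the pathway and to the enzyme that stores its product. RefSeq gave windows for 5 of the 7 genes (build GRCm38.p6, 250 bases before the start site and 50 from it on), and Fdps and Sqle had no entry. Each runs 5′ to 3′ on the gene's own strand, at chr13:119690101-119690400 (plus), chr15:82147019-82147318 (plus) and chr1:156474279-156474578 (minus). Capitals mark matches on either strand to a sterol regulatory element (TCACNCCAC), a CCAAT box (CCAAT), a GC box (GGGCGG) or an E-box (CACGTG).
Hmgcs1: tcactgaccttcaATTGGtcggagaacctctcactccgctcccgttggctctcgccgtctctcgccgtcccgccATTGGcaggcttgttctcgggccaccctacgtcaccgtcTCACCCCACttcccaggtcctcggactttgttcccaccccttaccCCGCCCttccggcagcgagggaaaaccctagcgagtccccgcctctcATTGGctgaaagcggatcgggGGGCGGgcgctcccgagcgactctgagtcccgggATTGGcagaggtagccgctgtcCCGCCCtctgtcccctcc
Srebf2: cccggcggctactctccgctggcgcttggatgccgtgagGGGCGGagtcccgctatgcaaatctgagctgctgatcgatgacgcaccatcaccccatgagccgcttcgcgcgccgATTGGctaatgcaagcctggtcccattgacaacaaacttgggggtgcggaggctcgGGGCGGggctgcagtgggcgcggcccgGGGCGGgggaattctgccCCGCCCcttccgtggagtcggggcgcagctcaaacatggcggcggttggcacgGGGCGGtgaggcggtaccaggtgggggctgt
Soat1: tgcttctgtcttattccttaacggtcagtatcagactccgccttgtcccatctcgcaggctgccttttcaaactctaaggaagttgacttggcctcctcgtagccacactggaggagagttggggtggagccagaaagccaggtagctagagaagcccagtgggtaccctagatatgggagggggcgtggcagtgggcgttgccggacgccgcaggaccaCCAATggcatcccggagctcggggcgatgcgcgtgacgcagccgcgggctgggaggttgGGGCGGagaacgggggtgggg
SREBP binds the first of these motifs, and the CCAAT and GC boxes bind NF-Y and Sp1, which are known to act with it. The sterol element was matched once, in Hmgcs1, starting at position -137 from the start site. It is present in 1.24% of the 32851 mouse promoter windows. CCAAT boxes, in 37.4% of all windows, were matched in 5 of the 5 windows, and so were GC boxes, in 35.7% of all windows. The E-box, in 7.15% of windows, was matched in 0 of 5. The 4 motifs do not overlap one another in the 3 windows shown, and a match is a string of letters and not a measured site.

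In the comparison of MP tumors with WT ovaries, 6 of the 7 genes were lower at an adjusted P under 0.05 and 0 were higher (limma on log2(TPM + 1), Benjamini-Hochberg over all 17277 genes), with the same 6 and 0 at an unadjusted P under 0.05 and 6 and 0 with voom on reads. Over all genes tested, 14.3% were lower by this call and 2.51% were higher, and the median log2 fold change was -0.58. Hmgcs1 had the lowest log2 fold change, and Srebf2 did not pass the test. Soat1 came next, with Fdps close to it, and these 2 changed places with a pseudocount of 0.1 (-2.82 and -2.97), with voom (-2.61 and -2.69) and against tumors of batches 2 and 3 only (-2.08 and -2.24). In 3 of the 7, Hmgcs1, Fdps and Soat1, all 10 tumors lay below the lowest WT ovary, which held for 16.4% of all genes tested. Each P value sets a difference of means against the spread between these samples, which in tumors includes the spread between batches.

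**Figure D1:**
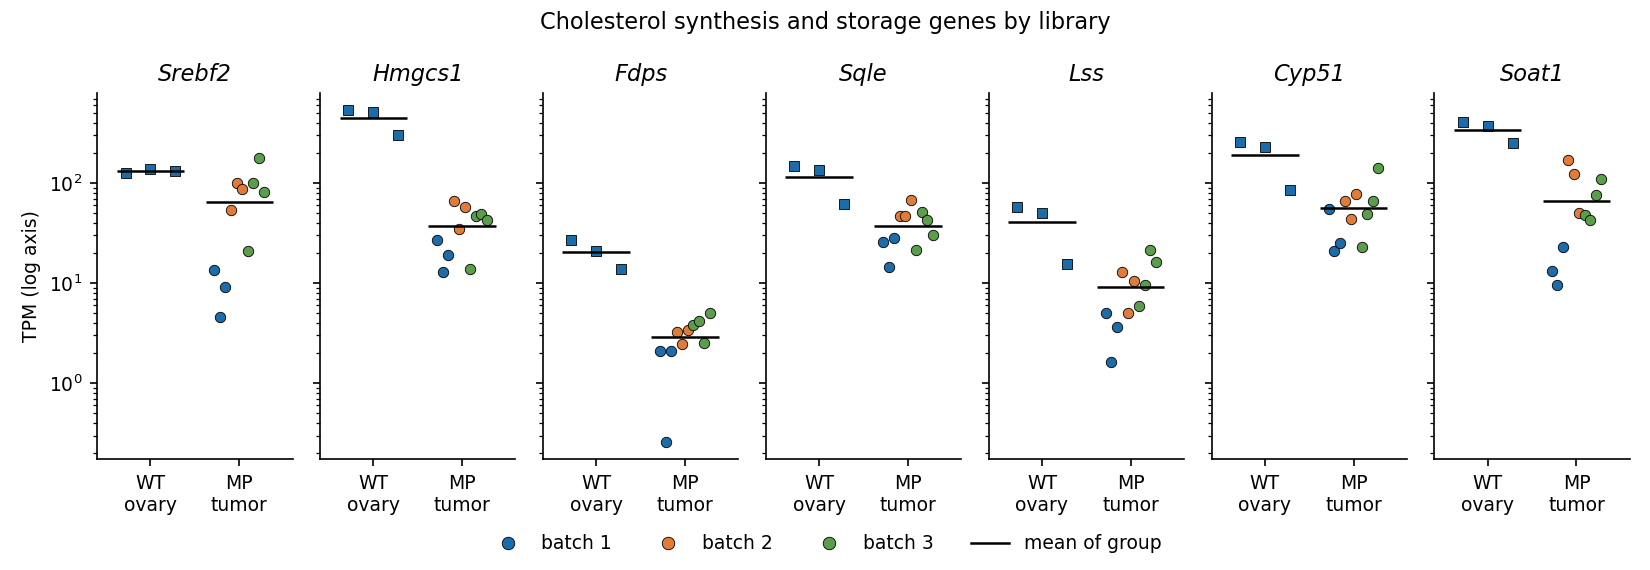
TPM (log axis) of the 7 genes in each library, with WT ovaries as squares, MP tumors as circles, color for the batch and a line at the mean of each group. Hmgcs1, Fdps and Soat1 show no overlap between groups, and Srebf2 in tumors spans 4.55 to 176 TPM around a narrow WT range of 126 to 139 TPM.

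Srebf2 (ENSMUSG00000022463, chr15:82147266-82205376 in GRCm38, as for all genes here) stood at 126, 139 and 132 TPM in WT ovaries 1 to 3. In tumors its lowest value was 4.55, its median 67.8 and its highest 176 TPM. The tumors were spread on both sides of the WT ovaries, with 9 below all of them and MP tumor 9 above. The log2 fold change was -1.70 (standard error 0.89, 95% interval -3.60 to 0.20, adjusted P = 0.193 from limma), so the test neither showed a fall nor bounded it closely. The 3 tumors of batch 1 were the lowest at 4.55 to 13.4 TPM. Within batch 1 the log2 fold change was -3.83 (adjusted P = 0.000128 from limma), where 57.3% of all genes were lower. With batch as a covariate, or a block on replicate number, Srebf2 was called at the same value, where 49.4% and 56.7% of all genes were lower. The fold change in both settings is that of the batch 1 libraries, so they are not separate support. Against the 7 tumors of batches 2 and 3, at 21.1 to 176 TPM, it was -0.79 (adjusted P = 0.284).

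Hmgcs1 (ENSMUSG00000093930, chr13:119690379-119708260) encodes the cytosolic synthase that makes HMG-CoA, at the entry to the mevalonate pathway. Its RNA stood at 536, 511 and 301 TPM in the WT ovaries and ran from 12.97 to 66.96 TPM in the tumors, with a median of 38.8 TPM. Even the highest tumor, MP tumor 4, was far below the lowest ovary. The log2 fold change was -3.70 (standard error 0.49, 95% interval -4.74 to -2.66, adjusted P = 7.94e-05 from limma), and it passed the threshold under each of the 11 other settings and with each library left out.

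Fdps (ENSMUSG00000059743, chr3:89093588-89101959) encodes farnesyl diphosphate synthase, whose product feeds both sterols and the prenyl anchors of proteins. It stood at 27.1, 21.1 and 13.8 TPM in WT ovaries and at 0.257 to 5.04 TPM in tumors (median 2.89 TPM). All tumors were below all ovaries, and the log2 fold change was -2.52 (standard error 0.46, 95% interval -3.49 to -1.55, adjusted P = 0.00143 from limma). The tumor values rested on few reads, from 6 in MP tumor 2 to 108 in MP tumor 8. Of the 76-base stretches in Fdps transcripts, 23.4% also occur in transcripts of other genes (21.8% in Gm43738), so its level depends on how such reads were counted.

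Sqle (ENSMUSG00000022351, chr15:59315077-59331192) encodes squalene epoxidase, the first oxygen-using and a rate-limiting step of the sterol branch. It stood at 147, 136 and 62.2 TPM in WT ovaries and at 14.5 to 67.7 TPM in tumors, with a median of 36.7 TPM. WT ovary 3 was far below the other ovaries, and MP tumor 6 lay just above it while the other 9 tumors lay below. The log2 fold change was -1.62 (standard error 0.44, 95% interval -2.56 to -0.68, adjusted P = 0.0216 from limma).

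Lss (ENSMUSG00000033105, chr10:76531588-76557138) encodes lanosterol synthase, which closes the sterol rings. Its RNA was at 57.7, 49.97 and 15.7 TPM in WT ovaries and at 1.62 to 21.6 TPM in tumors (median 7.81 TPM). MP tumors 9 and 10 were above WT ovary 3, and 8 tumors were below every ovary. The log2 fold change was -2.11 (standard error 0.61, 95% interval -3.42 to -0.80, adjusted P = 0.0291 from limma).

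Cyp51 (ENSMUSG00000001467, chr5:4081145-4104746) encodes the lanosterol demethylase, the step after Lss. WT ovaries 1 to 3 stood at 259, 231 and 84.6 TPM, and tumors ran from 20.95 to 140 TPM with a median of 51.9 TPM. The ranges overlapped, since MP tumor 10 at 140 TPM was above WT ovary 3, and 9 tumors were below every ovary. The log2 fold change was -1.81 (standard error 0.53, 95% interval -2.95 to -0.67, adjusted P = 0.0312 from limma).

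Soat1 (ENSMUSG00000026600, chr1:156424525-156474331) encodes sterol O-acyltransferase 1, which joins cholesterol to fatty acids for storage in lipid droplets. It stood at 407, 370 and 250 TPM in WT ovaries, second to Hmgcs1 among the 7, and at 9.52 to 170 TPM in tumors (median 49.1 TPM). No tumor reached the lowest ovary, and the highest tumors were MP tumors 4, 5 and 10. The log2 fold change was -2.79 (standard error 0.72, 95% interval -4.32 to -1.25, adjusted P = 0.0159 from limma).

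These calls were not equally firm. With TPM rescaled by median-of-ratios size factors, which moved the median of all genes to -0.02, Sqle (-0.90, adjusted P = 0.0959 from limma) and Cyp51 (-1.09, adjusted P = 0.0903) no longer passed, while Hmgcs1, Fdps, Lss and Soat1 did, beside 10.9% of all genes. Without WT ovary 1, adjusted P rose to 0.141 for Sqle, 0.173 for Lss, 0.179 for Cyp51 and 0.0899 for Soat1, and without WT ovary 2 to 0.123, 0.149, 0.156 and 0.0792, so that 2 of the 7 genes, Hmgcs1 and Fdps, were called in either case, beside 6.70% and 6.92% of all genes. Without WT ovary 3, Soat1 was at 0.0540. Against the tumors of batches 2 and 3 alone Cyp51 was at 0.0529, and 5 of the 7 were called, beside 13.5% of all genes. The direction was lower in tumors for all 7 genes in each of these settings.

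**Figure D2:**
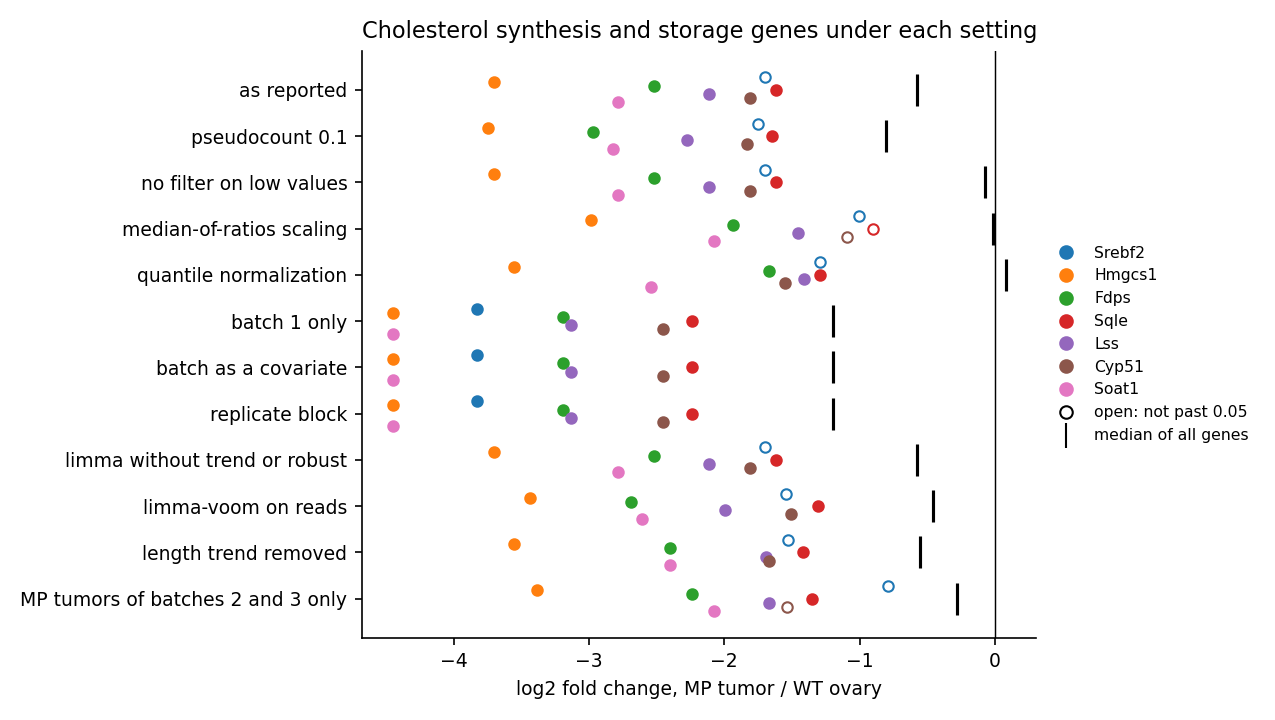
Log2 fold change (MP tumor over WT ovary) of the 7 genes under each setting, with open circles for values not past an adjusted P of 0.05 and a bar at the median of all genes tested. Hmgcs1 lies farthest to the left or level with Soat1 in each row, and each circle lies left of the median of all genes.

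The levels of the 7 genes were also ordered within each group. TPM is per length, and the length given with the values is more than the longest coding transcript of GENCODE release 21 for 6 of the 7 genes. For Srebf2 it is less (4989 against 5077 bases). The excess was largest for Fdps (4208 against 1382 bases), Lss (10787 against 4667 bases) and Sqle (5546 against 2758 bases), so the order of levels depends on this length. By mean TPM the order in WT ovaries was Hmgcs1 (449 ± 129), Soat1 (342 ± 82.3), Cyp51 (191 ± 93.7), Srebf2 (132 ± 6.21), Sqle (115 ± 45.9), Lss (41.1 ± 22.4) and Fdps (20.7 ± 6.68) (SD, n = 3). Neighbors in this order overlapped in range, except that Sqle and Lss were apart. In tumors it was Soat1 (66.8 ± 52.8), Srebf2 (64.8 ± 54.9), Cyp51 (56.7 ± 35.4), Sqle (37.5 ± 16.2), Hmgcs1 (37.1 ± 18.6), Lss (9.22 ± 6.27) and Fdps (2.91 ± 1.34) (SD, n = 10), with overlap between all neighbors. By mean, Hmgcs1 thus went from the first place in ovaries to the fifth in tumors, and by median it was above Sqle (38.8 against 36.7 TPM). In the batch 1 tumors Hmgcs1, at 12.97 to 27.2 TPM, was above Srebf2, at 4.55 to 13.4 TPM, in each tumor, as it was in MP tumor 4 of batch 2 (66.96 against 54.2 TPM), while in the other 6 tumors it was below Srebf2. These are descriptions with no test of their own.

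Synthesis was set beside storage through the log2 ratio of each gene to Soat1 within a library, which does not move with the scaling of that library beyond the added 1 TPM. The ratio of Sqle to Soat1 was 1.17 higher in tumors and lay above all WT ovaries in 8 of 10 tumors, and that of Srebf2 was 1.09 higher, above all WT ovaries in 6 tumors. For Cyp51 and Lss the differences were 0.98 and 0.68, with 7 tumors above all WT ovaries in each case. Hmgcs1 went the other way, at -0.92, with 8 of 10 tumors below all WT ovaries, and Fdps differed by 0.27, with 6 tumors above and 4 below. The sign for Fdps depended on the added value, since the difference was -0.15 with a pseudocount of 0.1. None of the 6 ratios passed an exact permutation test over the 286 possible choices of 3 libraries among 13, with 2-sided P between 0.0839 for Sqle and 0.682 for Fdps and adjusted P between 0.241 and 0.682, where the smallest P possible was 0.0035. Within batch 1 the differences were 2.21 for Sqle, 2.00 for Cyp51, 1.31 for Lss, 1.26 for Fdps, 0.618 for Srebf2 and -0.0023 for Hmgcs1. All 3 batch 1 tumors lay above all 3 WT ovaries for Sqle, Cyp51, Lss and Fdps, where an exact permutation test of 3 against 3 libraries cannot go below P = 0.1 (adjusted P = 0.15 for each of the 4). For Fdps this rests on the added 1 TPM. In MP tumor 2, Fdps was at 0.257 TPM and Soat1 at 9.52 TPM, a ratio below all WT ovaries when nothing is added. Against the tumors of batches 2 and 3 alone the differences were 0.727, 0.542, 0.406, -0.16, 1.29 and -1.31 in the same order of genes. A shift of balance between synthesis and storage was thus not shown over all tumors, could not be called within batch 1, and equal balance was not shown either.

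**Figure D3:**
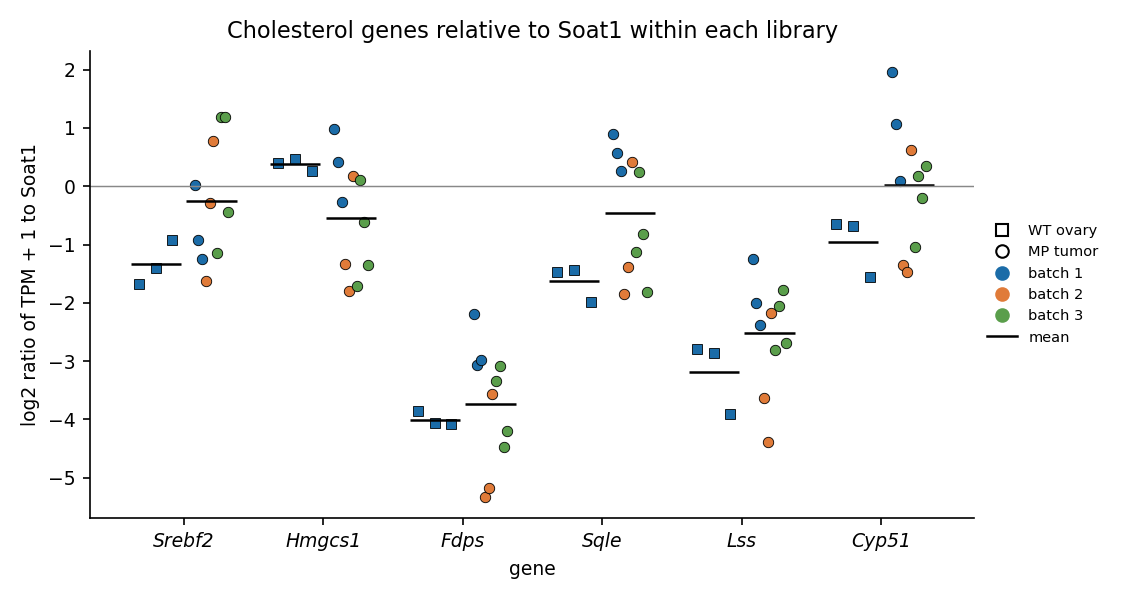
Log2 ratio of TPM + 1 of 6 genes to Soat1 in each library, with WT ovaries as squares, MP tumors as circles, color for the batch and a line at each group mean. The tumors spread over a wider range than the ovaries for each gene, and the batch 1 tumors are among the higher ones for Sqle and Fdps.

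The tumors differed among themselves by batch. In the 3 tumors of batch 1 against the 7 of batches 2 and 3, Srebf2 was lower by a log2 difference of -3.04 (adjusted P = 0.00139 from limma) and Soat1 by -2.37 (9.52 to 23.2 against 43.1 to 170 TPM, adjusted P = 0.00239), with no overlap in either gene. Lss was lower by -1.46 (1.62 to 5.03 against 4.98 to 21.6 TPM, adjusted P = 0.0324). Hmgcs1, Fdps, Sqle and Cyp51 differed by -0.89 to -1.07 and did not pass (adjusted P from 0.0825 to 0.166). Of all genes tested, 30.1% were lower and 1.29% higher in batch 1 tumors, and under median-of-ratios scaling 1 of the 7 genes was called against 9.69% of all. MP tumor 2, in batch 1, is the library in which few genes took most of the TPM. Tumor batch and the time or mice behind it cannot be told apart.

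Because Srebf2 separated the tumors by batch without overlap, its relation to the other 6 genes was read within the 7 tumors of batches 2 and 3. There Pearson's r on log2(TPM + 1) was 0.682 with Hmgcs1, 0.648 with Sqle, 0.554 with Cyp51, 0.513 with Lss, 0.130 with Soat1 and -0.38 with Fdps. Spearman's rho was 0.107, 0.429, 0.143, 0.143, 0.00 and -0.50 in the same order. In exact permutation tests over 7 tumors, the P of r ran from 0.120 for Sqle to 0.795 for Soat1 and adjusted P from 0.361 to 0.795 over the 6 relations, and the P of rho from 0.267 for Fdps to 1 for Soat1 (adjusted P = 1 for each). Without MP tumors 7 and 9, the farthest from the median of Srebf2, r turned to -0.77 for Hmgcs1 and -0.58 for Lss and to -0.30 for Cyp51 and -0.62 for Soat1, and it was 0.160 for Sqle and -0.06 for Fdps, so the positive values of Hmgcs1, Lss, Cyp51 and Soat1 rested on those 2 tumors, and that of Sqle shrank. Over all 10 tumors 6 of the 6 Pearson correlations passed an adjusted P of 0.05 by permutation and 0 of the 6 Spearman correlations did (adjusted P from 0.0814 to 0.156). Of the Pearson correlations, 0 passed under median-of-ratios scaling, with batch means subtracted 2 did, and without MP tumor 2, the lowest in Srebf2, 0 did.

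Along the rest of the pathway, counted from the list of 80 genes of which 79 were tested, 36 were lower in tumors and 0 higher by limma (54 and 1 at an unadjusted P under 0.05), with a median log2 fold change of -1.81. The list includes the 7 genes, and the counts stand beside 14.3% of all genes lower. In the mevalonate branch, from acetyl-CoA to farnesyl and geranylgeranyl diphosphate, 5 of 9 genes were lower (median -1.85). They included Mvd and Mvk, a decarboxylase and a kinase of the branch, which had log2 fold changes of -2.12 and -1.94 (adjusted P = 0.0115 and 0.0410 from limma). From squalene to cholesterol 9 of 13 genes were lower (median -1.84). Those with the lowest adjusted P from limma were Sc5d (-2.72, adjusted P = 0.000145), Hsd17b7 (-5.40, adjusted P = 0.000155) and Nsdhl (-2.50, adjusted P = 0.000692), which act late in the branch.

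**Figure D4:**
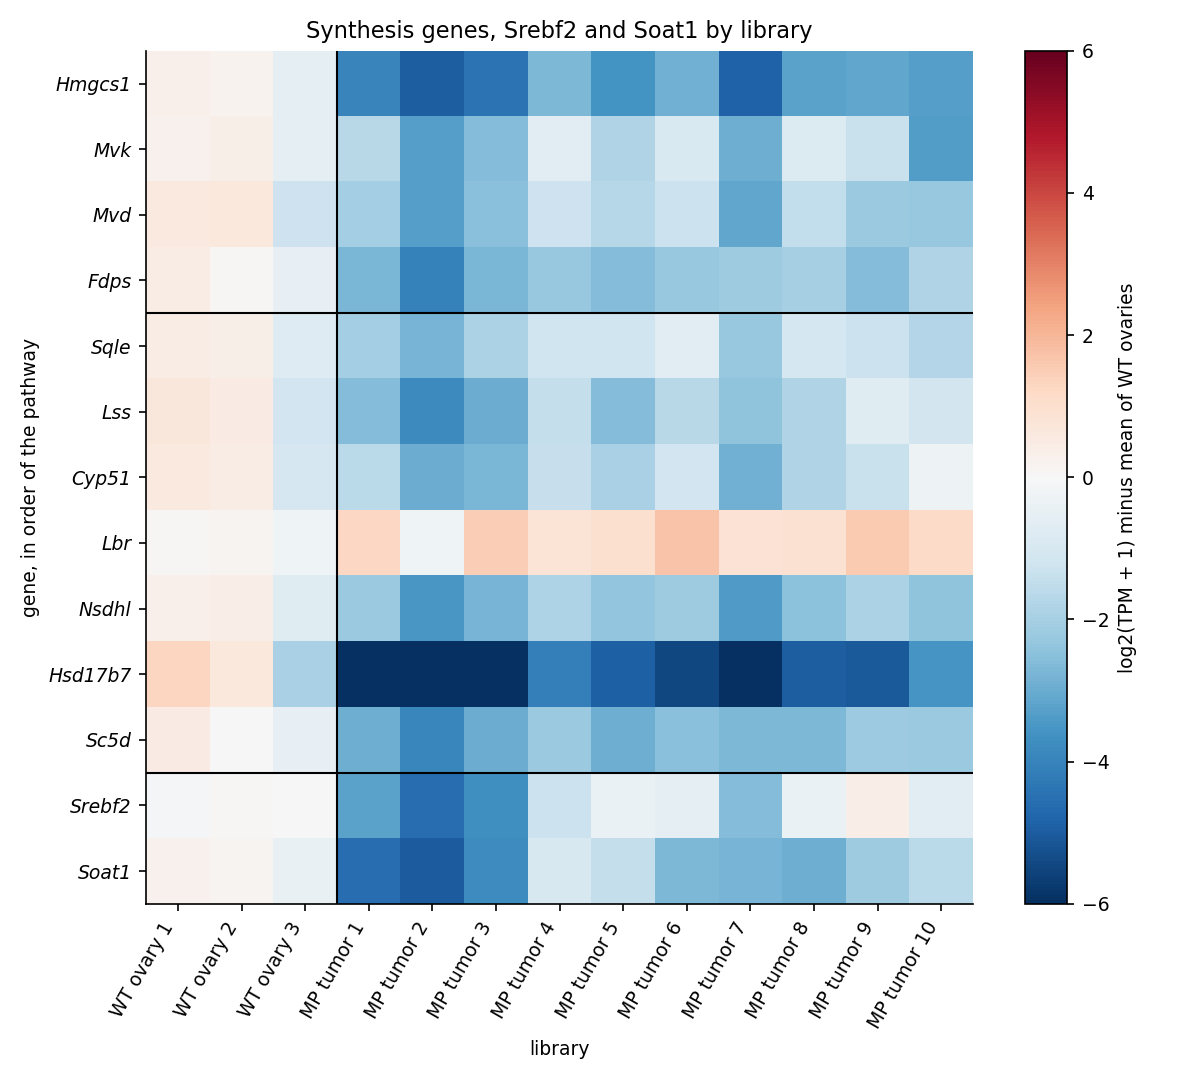
Log2(TPM + 1) minus the mean of the 3 WT ovaries, for the synthesis genes named in the text, in order of the pathway, and for Srebf2 and Soat1 in the lowest rows, with libraries in columns; the scale ends at -6, and lower values have the color of -6. Apart from Lbr, these synthesis genes are mostly below the ovaries in the tumors, Hsd17b7 and Hmgcs1 most, and Lbr is above them in 9 of 10 tumors.

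One gene of the sterol branch stood apart from its neighbors. Lbr, a nuclear envelope protein that also has sterol reductase activity, was at 21.8, 23.5 and 17.1 TPM in WT ovaries and at 17.05 to 69.2 TPM in tumors (median 43.5 TPM), above every ovary in 9 of 10 tumors. Its log2 fold change of 1.04 did not pass (adjusted P = 0.0726 from limma), and without MP tumor 2, the one tumor below the ovaries, it was 1.19 (adjusted P = 0.00981). It passed as higher under 5 other settings too, with 1.74 under median-of-ratios scaling (adjusted P = 0.00524). Lbr was singled out after its values were seen.

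Of the machinery that holds and releases SREBP, 1 of 9 genes was lower, a share near that of all genes, with a median log2 fold change of -1.29 against -0.58 for all genes tested. Scap, the sterol-sensing escort of SREBP, was at -1.78 (adjusted P = 0.0885 from limma), and Insig1, which retains the complex and is itself an SREBP target, at -1.28 (adjusted P = 0.116). On the fatty acid arm, which Srebf1 governs more than Srebf2, 3 of 10 were lower (median -1.89), among them Acss2 and Acly, which supply acetyl-CoA (-2.11 and -1.94, adjusted P = 0.00472 and 0.0119), and the desaturase gene Scd2 (-2.90, adjusted P = 0.0462).

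Uptake of lipoprotein cholesterol and its release from lysosomes had 6 of 12 genes lower (median -1.69). Scarb1, the HDL receptor through which mouse steroid-producing cells take up cholesterol esters, was at 982, 793 and 442 TPM in WT ovaries and at 5.42 to 126 TPM in tumors (log2 fold change -3.96, adjusted P = 0.00199 from limma). Lipa, the lysosomal ester hydrolase, and Npc2, which passes free cholesterol out of the lysosome, had log2 fold changes of -1.81 and -1.48 (adjusted P = 0.00805 and 0.00549).

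Storage and outflow were represented by 8 and 7 tested genes. Of the esterification genes 3 were lower (median -1.20). They were Soat1, Lipe, the hormone-sensitive lipase that frees stored cholesterol (-2.20, adjusted P = 0.0406 from limma), and Soat2, which was low in both groups (2.07 ± 0.668 against 0.439 ± 0.339 TPM, adjusted P = 0.0113). Plin3, a lipid droplet coat protein, was at -1.30 (adjusted P = 0.0712). Of the efflux and LXR genes 2 were lower (median -1.22). Apoa1 went from 67.5 ± 15.9 to 0.649 ± 0.727 TPM (-5.47, adjusted P = 3.02e-07) and the cholesterol exporter Abca1 from 114 ± 2.41 to 28.6 ± 35.2 TPM (-2.86, adjusted P = 0.0469), while Apoe was at -1.64 (adjusted P = 0.0832).

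The users of ovarian cholesterol, the genes of steroid synthesis, had the lowest median of the 8 lists, with 8 of 12 genes lower and a median log2 fold change of -3.90. Star, which carries cholesterol into mitochondria, stood at 1959 ± 474 TPM in WT ovaries and 11.8 ± 10.3 TPM in tumors (-7.77, adjusted P = 3.89e-06 from limma). Cyp11a1, the side-chain cleavage enzyme that starts steroid synthesis, went from 6661 ± 258 to 28.9 ± 68.0 TPM (-9.61, adjusted P = 1.80e-05), and Cyp19a1, the aromatase, from 13.5 ± 5.27 to 0.0183 ± 0.0577 TPM (-3.78, adjusted P = 4.14e-08). Several of these genes are also the luteal, theca and granulosa markers given above, so they are not a separate readout from those lists.

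**Figure D5:**
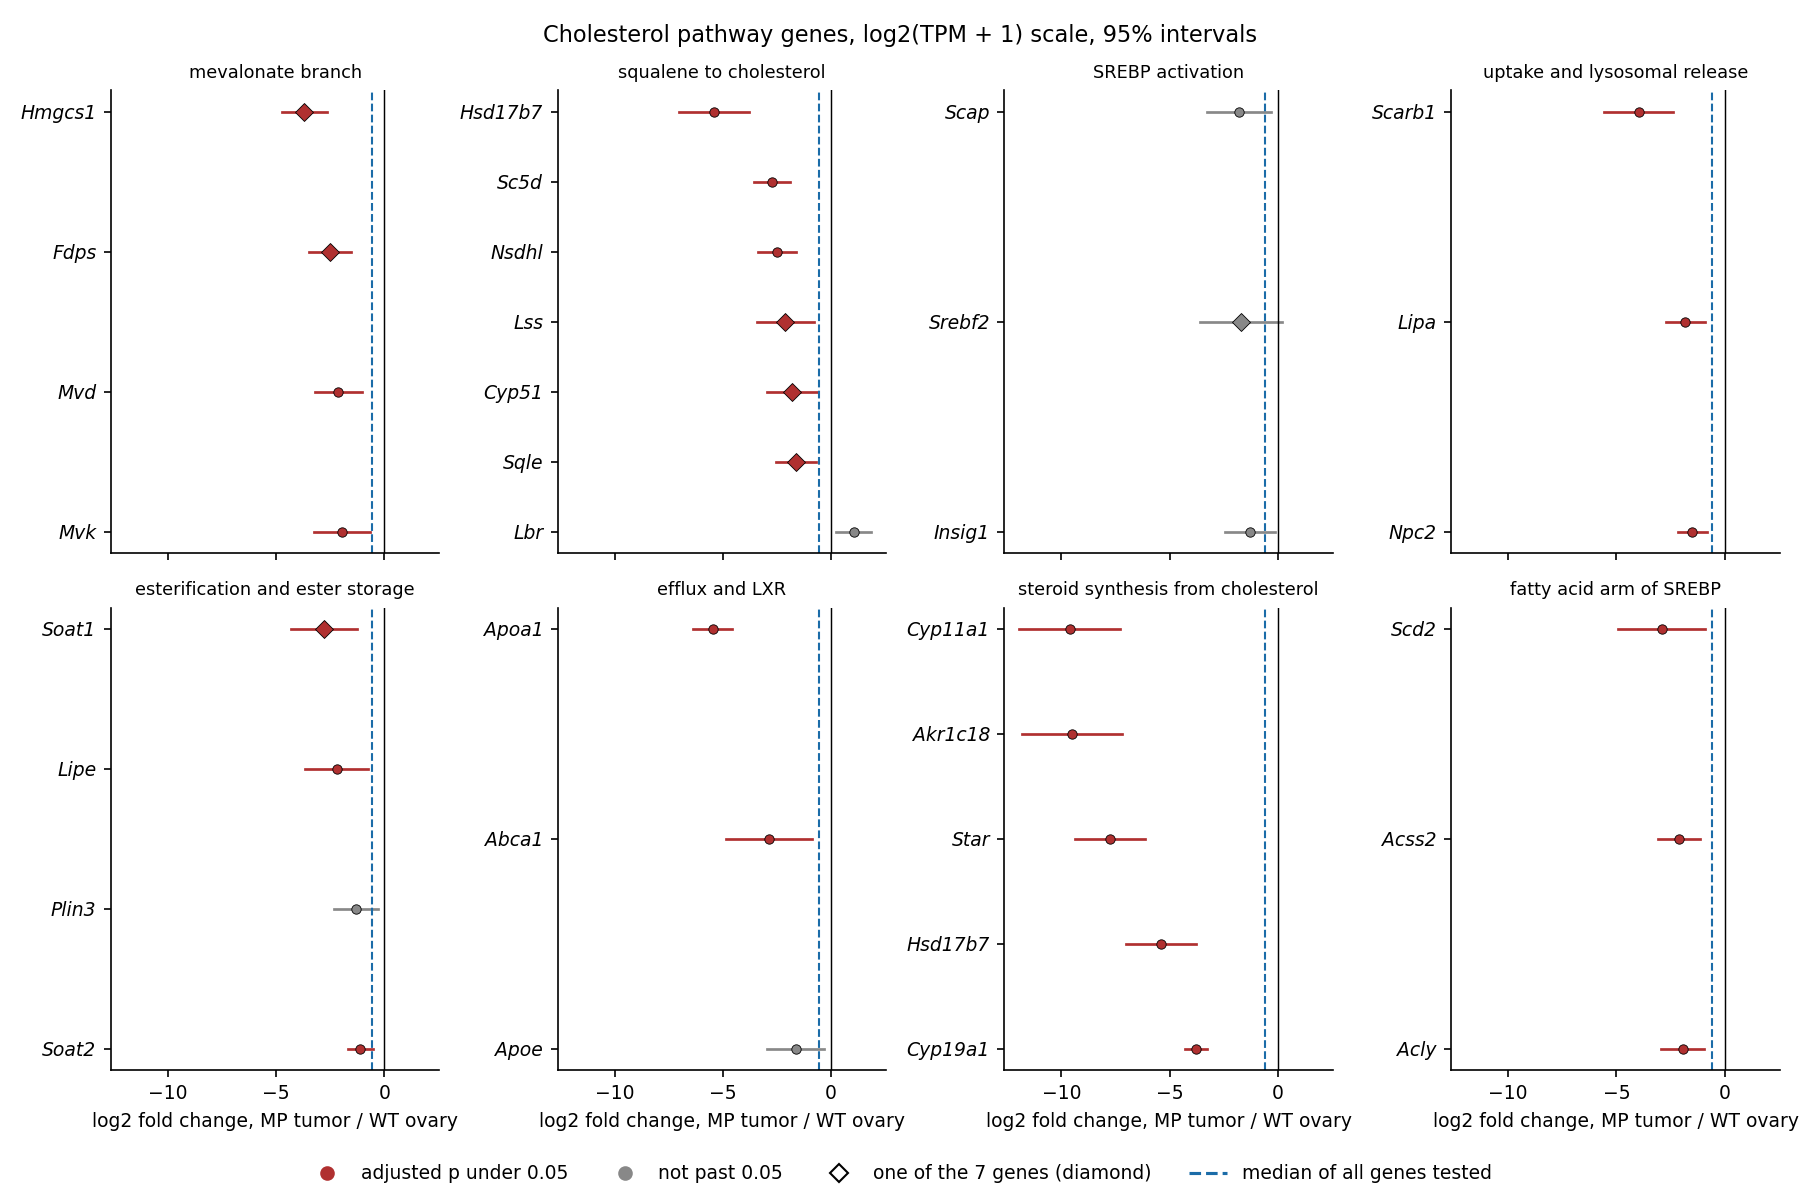
Log2 fold change (MP tumor over WT ovary, log2(TPM + 1) scale) with 95% intervals for the pathway genes named in the text, in 8 lists, with red for an adjusted P under 0.05, diamonds for the 7 genes and a dashed line at the median of all genes tested. Steroid synthesis genes reach the lowest values, and Lbr is the gene to the right of 0.

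The mean of the standardized log2(TPM + 1) of Hmgcs1, Fdps, Sqle, Lss and Cyp51 was used to find the genes whose pattern over the 10 tumors was most like theirs. Of 9450 genes with a mean of at least 10 TPM, the closest were Nme7 (Pearson's r = 0.963), Mut (0.963), Kat5 (0.958), Phf23 (0.953) and Surf1 (0.945). Among the pathway genes, Sc5d stood at place 82 (0.902) and Hsd17b7 at place 179 (0.882). These are descriptions over 10 libraries that share their scaling and their batches.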

How the data were processed

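Bulk RNA-seq of 3 WT ovaries and 10 MP tumors was analysed from 1 table. The authors deposited TPM per gene and library, without pooling replicates. Per the labels' processing notes, tools were FastQC 0.11.5, Trimmomatic 0.36, STAR 2.5.3a and featureCounts 1.6.3 on mm10/GRCm38, while the extraction protocol names a human build, HTSeq and RPKM. The table carries mouse identifiers and TPM, and 6 of the 7 genes have the start and end of GENCODE release 21, so the mouse build was taken. Libraries were polyA-selected, with single-end reads of 76 bases. TPM times length gave whole reads for 100% of values (tolerance 0.01 read), and a single read was worth 0.0513 to 0.790 TPM for 1 kb of gene length.

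Values were tested as log2(TPM + 1) with limma 3.58.1 (trend, robust) in R 4.3.3, in genes that reached 1 TPM in 3 or more libraries, over all 13 libraries without a covariate and a Benjamini-Hochberg threshold of 0.05. Fold changes on this scale understate changes of low genes. Ratios and correlations were tested by exact permutation, or by 100000 permutations over 10 tumors, in Python 3.11.15. Figures were drawn with matplotlib 3.10.9. On simulated data of 17277 genes, with 50 changed at each size, limma recovered 1 at 2-fold, 13 at 4-fold, 41 at 8-fold and 45 at 16-fold, and called 6 unchanged genes. The simulated spread of each gene was capped at a log2 SD of 1 and held no batch differences. These counts therefore do not carry over to genes with a wider spread or a batch difference. Members and lists were chosen with earlier results of these data known. Text names the 7 genes, Trp53, Myc, the 3 genes of each list with the largest moderated statistic, and the 5 genes most alike in pattern. Lbr and Akr1c18 were added after their values were seen. Some genes that the rule names are not reported here. Pairs of libraries within a group differed beyond sampling noise (chi-square per degree of freedom of at least 25.8), so none was counted as a repeat. The WT and MP samples numbered 1 to 3 come from different animals, and their deviations correlated at -0.05 to 0.02. Alternatives varied the pseudocount, filter, scaling, batch, block on replicate number, limma options, voom on reads, gene length trend and single libraries, and a comparison with tumors of batches 2 and 3 alone was added after the data were seen. 0 sample columns were left unused.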

Additional observations from a re-analysis of the deposited data

Results flagged for a closer look

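Fdps in MP tumor 2 stood far below the other tumors, at 0.33 on the log2(TPM + 1) scale, where the next tumor was at 1.63 and the highest at 2.60. The gap took up 0.572 of the range of the 10 tumors, past the limit of Dixon's test. The value rested on 6 reads, in the library where 10 genes took 55.1% of TPM, and the part of either in the value was not tested. Of 13 sets of values examined, chance alone gives 1 in 20, or 0.65. Without MP tumor 2 Fdps was still called as lower in tumors.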

How the results depend on the processing

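The count of genes lower in tumors, 2463 as reported, was 9902 within batch 1, 8534 with batch as a covariate, 9803 with the replicate block and 4042 with voom on reads, and 1158 to 3264 with single libraries left out. Genes higher, 433 as reported, were 1112, 894, 1087 and 1879 in the same settings, 808 with tumors of batches 2 and 3 only, and 94 to 635 with single libraries left out. Calls were fewest without any 1 WT ovary. Under median-of-ratios scaling 1888 were lower and 1291 higher, and under quantile normalization 2091 and 1904, with a median log2 fold change of all genes of 0.0800 in the latter. Of the 7 genes, 6 were lower as reported and 2 to 6 with single libraries left out. The replicate numbers do not pair the animals, and the replicate block called all 7, with Srebf2 at -3.83, as did batch 1 alone and batch as a covariate. Pathway genes lower numbered 36 as reported, 68 within batch 1, 64 with batch as a covariate, 64 with the replicate block and 19 to 42 with single libraries left out (19 without WT ovary 1, 21 without WT ovary 2). Pathway genes higher numbered 0 as reported, 1 under median-of-ratios scaling, voom, removal of the length trend and tumors of batches 2 and 3 only, 2 under quantile normalization (Lbr among them), and 0 to 1 with single libraries left out. Of the 7 genes, 3 were lower in batch 1 tumors, 1 under median-of-ratios or quantile scaling, and 2 to 5 with single tumors left out (5 without MP tumor 7). Correlations of Srebf2 past the threshold over 10 tumors numbered 6, 0 under median-of-ratios scaling (r of -0.0762 with Sqle and -0.0430 with Cyp51), 2 with batch means subtracted, 0 in batches 2 and 3 only (-0.38 with Fdps) and 0 to 6 with single tumors left out (0 without MP tumor 2). Ratios to Soat1 past the threshold numbered 0 in each setting. The Fdps to Soat1 ratio changed sign to -0.15 with a pseudocount of 0.1 and to -0.16 with tumors of batches 2 and 3 only. The causes were not tested. The log2 fold changes of the 7 genes kept their direction in the 11 settings and the 13 omissions of a library. Batch 1 alone, batch as a covariate and the replicate block give the same fold changes, as all WT ovaries are in batch 1. They count as 1 comparison and not as separate support. Depth limited Fdps most, and intervals for counting error were not computed.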

Other observations

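The 3 WT ovaries differed in the synthesis genes. WT ovary 3 held the lowest of the 3 values in 9 of 9 mevalonate genes, 12 of 13 genes from squalene to cholesterol, 9 of 10 genes of the fatty acid arm and 6 of the 7 synthesis and storage genes, against 48.2% of all genes tested. It held the lowest value in 3 of 12 steroid synthesis genes and 0 of 7 efflux genes. Hsd17b7, a sterol enzyme that also acts on estrone in the corpus luteum, was at 749, 477 and 79.5 TPM in WT ovaries 1 to 3. Akr1c18, the enzyme that inactivates progesterone in the mouse ovary, was at 1175, 2849 and 6896 TPM in the same libraries. The 5 adipocyte markers also differed between WT ovaries 1 to 3. Adipoq was at 36.6, 23.8 and 0.594 TPM, and Cfd at 239, 124 and 1.06 TPM. Cidec was at 13.9, 7.25 and 0.111 TPM and Lep at 1.45, 0.550 and 0 TPM, while Plin1 was at 13.7, 15.1 and 14.0 TPM. The part that fat cells play in the values of the 3 ovaries was not tested. The stage of the estrous cycle of these mice is not given in the sources used here. These genes were singled out after their values were seen, and 1 library of 3 allows no test.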
